A study of Mus musculus with 99 samples.

Results

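The 7 genes that encode the subunits of the NMDA receptor were followed across 5 regions of the juvenile mouse brain: Grin1, which encodes the GluN1 subunit, Grin2a, Grin2b, Grin2c and Grin2d, which encode GluN2A to GluN2D, and Grin3a and Grin3b, which encode GluN3A and GluN3B. They were chosen as a gene family, by name, and found through their Ensembl identifiers, 7 of the 55335 gene identifiers counted. Bulk RNA sequencing of tissue punches gave 99 libraries from wildtype offspring of C57BL/6 dams. The fentanyl groups came from dams given fentanyl at 10 µg/ml in their drinking water, begun on embryonic day 0 and kept up until weaning, so the pups were exposed before and after birth, and the control groups came from dams given water. Females and males of each treatment were sampled as juveniles in 5 places: 2 of cortex, the primary somatosensory (S1) and the prelimbic (PrL), and below it the nucleus accumbens (NAc), the ventrobasal nuclei of the thalamus (VBT) and, in the midbrain, the ventral tegmental area (VTA). Of the 20 groups of region, sex and treatment, 19 had 5 libraries and S1 of water-exposed males had 4. The exact age, the litters and the dose that reached each pup are not given in the sources used here.

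The NMDA receptor is a glutamate-gated cation channel of excitatory synapses that passes calcium when the cell is already depolarized. It is built from obligatory GluN1 subunits together with GluN2 subunits, which bind glutamate and set the kinetics and the magnesium block of the channel, or with GluN3 subunits, which bind glycine and lower the passage of calcium. In the forebrain GluN2B predominates early and GluN2A is added as circuits mature, which is why the ratio of Grin2a to Grin2b is used as a measure of receptor composition, while GluN2C and GluN2D are known mainly from the thalamus, midbrain, cerebellum and particular interneurons.

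The subunits are paralogs. Windows of 45 bases starting at each codon of Grin2a were compared with the other members, without gaps. The window that these matched best in sum lies in the part of the gene that encodes the pore-forming core. It is shown 5′ to 3′ for 5 of the genes from GENCODE M21 on GRCm38, with every base that differs from Grin2a in capitals.
Grin1: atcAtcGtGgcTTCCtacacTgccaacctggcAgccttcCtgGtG
Grin2a: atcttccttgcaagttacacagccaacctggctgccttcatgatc
Grin2c: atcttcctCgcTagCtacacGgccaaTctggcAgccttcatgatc
Grin3a: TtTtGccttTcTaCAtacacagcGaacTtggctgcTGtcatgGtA
Grin3b: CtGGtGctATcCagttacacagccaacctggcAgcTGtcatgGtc
Over this window Grin2c matched Grin2a at 39 of the 45 bases, Grin3b at 34, Grin1 at 33 and Grin3a at 32.

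All 7 genes are annotated as protein-coding. Grin1 (ENSMUSG00000026959) lies at chr2:25291181-25319187 on the minus strand. Grin2a (ENSMUSG00000059003) lies at chr16:9567898-9995560 on the minus strand. Grin2b (ENSMUSG00000030209) lies at chr6:135713233-136173511 on the minus strand. The other GluN2 genes are much shorter. Grin2c (ENSMUSG00000020734) lies at chr11:115249169-115267243 on the minus strand. Grin2d (ENSMUSG00000002771) lies at chr7:45831883-45878378 on the minus strand. The GluN3 genes are on different chromosomes. Grin3a (ENSMUSG00000039579) lies at chr4:49661611-49845744 on the minus strand. Grin3b (ENSMUSG00000035745) lies at chr10:79970715-79977190 on the plus strand, the only member on that strand. The GC content of the longest transcript was 44.8% for Grin2a, 45.7% for Grin2b and 49.2% for Grin3a, and it was higher for the others, at 59.4% for Grin1, 62.1% for Grin2c, 63.5% for Grin3b and 65.0% for Grin2d. Genes of the opposite strand overlap the exons of Grin1 over 1307 bases, of Grin2d over 643, of Grin2b over 278 and of Grin2c over 91, and Tmem259 overlaps those of Grin3b over 1059. The library kit is not described as one that marks strand, and reads from such overlaps cannot be told apart.

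Levels are given as CPM, the count of a gene scaled to a common total of reads assigned to genes. Of the 99 libraries, 1 was left out: the VTA library labelled male water replicate 3 had counts for 6333 genes and listed Grin2d and Grin3a at 0, whereas each of the 98 libraries kept had counts for at least 24079 genes and a total of 23032078 to 52069639. The region labels were checked against marker genes. Dopamine neuron markers summed to 335 to 1733 CPM in VTA and to at most 69.3 elsewhere, and thalamic relay markers to 1493 to 4591 in VBT and at most 810.4 elsewhere. Striatal projection neuron markers summed to 816 to 2823 in NAc and to at most 532 elsewhere, the highest in VBT male water replicate 3. Cortical glutamatergic markers ranged from 53.7 to 1373 in NAc, against 1245 to 1752 in S1, so the highest NAc library, female water replicate 1, lay within the range of S1. In PrL, olfactory bulb markers summed to 171 CPM in female water replicate 5 and 324 in male water replicate 3. They were also raised in male water replicate 4, at 31.0, against at most 8.63 in the other PrL libraries. No label says which libraries came from one animal or litter, so p-values measure the spread among libraries only.

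The regions were first compared in the water libraries, to show which subunits each region carried before exposure is considered. S1 and PrL carried the most Grin1, Grin2a and Grin2b, VBT stood out for Grin2c, and VTA stood out for high Grin2d and for low Grin2a and Grin2b and shared the highest Grin3a levels with PrL. Over the 10 pairs of regions the edgeR quasi-likelihood test called 58 of 70 differences of a subunit between 2 regions at a Benjamini-Hochberg adjusted p under 0.05. Regions differ in most genes, and the share of all genes called is given beside the members' count: 6 of 7 members and 54.4% of all genes between VTA and VBT, 7 and 69.2% between VTA and S1, 6 and 68.2% between VTA and PrL, and 7 and 66.2% between VTA and NAc. VBT gave 7 members and 69.8% of genes against S1, 6 and 70.1% against PrL, and 5 and 69.8% against NAc. Among the forebrain regions the counts were 5 members and 39.5% of genes between S1 and PrL, 4 and 55.1% between S1 and NAc, and 5 and 52.1% between PrL and NAc. The fentanyl libraries, which that fit does not use, gave 55 of 70, with 62.9%, 69.2%, 72.1%, 71.7%, 68%, 71.5%, 72%, 42.9%, 57.3% and 61.9% of all genes called in the pairs in the same order, and 53 differences were called with the same sign in both. With VTA male water replicate 3 kept, 46 of 70 were called. In bulk tissue, fewer cells that express a gene and less RNA per cell cannot be told apart.

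Grin1 encodes the subunit that every NMDA receptor needs, and it varied least among regions of the well-detected members. In S1 its level ran from 545 to 685 CPM (median 584, n = 9). In PrL the range was 501 to 608 CPM (median 545, n = 10), and in VBT 347 to 578 CPM (median 497, n = 10). These 3 regions overlapped, and neither S1 minus PrL (log2 difference 0.10, SE 0.07, adjusted p = 0.243) nor VBT minus PrL (-0.11, SE 0.07, adjusted p = 0.160) was called. VBT minus S1 was called, at -0.21 (SE 0.07, adjusted p = 0.00698). NAc ranged from 444 to 521 CPM (median 472, n = 10) and VTA from 287 to 378 CPM (median 328, n = 9). Every VTA library lay below every S1, PrL and NAc library, and VTA minus S1 was -0.94 (SE 0.07, adjusted p = 4.25e-16).

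Grin2a, the subunit of mature and faster receptors, was highest in cortex. Its level was 369 to 499 CPM (median 425, n = 9) in S1 and 287 to 431 CPM (median 334, n = 10) in PrL. NAc followed at 138 to 264 CPM (median 207, n = 10) and VBT at 127 to 229.5 CPM (median 192, n = 10), and VTA was lowest at 69.5 to 91.4 CPM (median 75.3, n = 9). No VTA library reached the lowest library of any other region. The log2 difference of VTA minus S1 was -2.52 (SE 0.12, adjusted p = 6.11e-24), whereas VBT minus NAc was not called (-0.01, SE 0.10, adjusted p = 0.945). S1 was above PrL by 0.30 (SE 0.11, adjusted p = 0.0211) in water, but in the fentanyl libraries that difference was 0.19 (SE 0.12, adjusted p = 0.212) and was not called.

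Grin2b, the subunit of slower receptors with a long cytoplasmic tail that binds CaMKII, was highest in PrL and S1. PrL libraries ranged from 622 to 910.3 CPM (median 747, n = 10) and S1 libraries from 577 to 844 CPM (median 708, n = 9), and S1 minus PrL was not called (-0.10, SE 0.10, adjusted p = 0.416). NAc at 437 to 657 CPM (median 570.4, n = 10) and VBT at 345 to 632 CPM (median 521, n = 10) formed the next step, and VBT minus NAc was not called (-0.04, SE 0.09, adjusted p = 0.737). VTA was far lower, at 118 to 173 CPM (median 138, n = 9). All 9 VTA libraries lay under all libraries of the other regions, and VTA minus PrL was -2.55 (SE 0.10, adjusted p = 2.7e-26).

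Grin2c, a subunit with weak magnesium block, was concentrated in the thalamus. VBT libraries carried 123 to 204 CPM (median 172, n = 10). S1 followed at 44.4 to 73.0 CPM (median 57.9, n = 9), NAc at 46.2 to 65.7 CPM (median 53.3, n = 10) and PrL at 34.2 to 68.3 CPM (median 45.3, n = 10), with VTA lowest at 21.9 to 42.4 CPM (median 33.1, n = 9). Every VBT library exceeded every library of the other regions. VBT was above S1 by a log2 difference of 1.60 (SE 0.11, adjusted p = 1.42e-17) and above VTA by a larger margin, VTA minus VBT being -2.52 (SE 0.11, adjusted p = 1.42e-23). Among the lower regions, differences that were not called were S1 minus NAc (0.12, SE 0.11, adjusted p = 0.344) and PrL minus NAc (-0.17, SE 0.10, adjusted p = 0.163), although PrL was below NAc in the fentanyl libraries (-0.42, SE 0.08, adjusted p = 1.4e-05).

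Grin2d, which encodes the slowest of the GluN2 channels and is known from the brainstem, diencephalon and interneurons, was highest in VTA and VBT. VTA water libraries carried 56.2 to 80.8 CPM (median 72.5, n = 9), VBT 25.9 to 50.6 CPM (median 36.0, n = 10) and PrL 12.2 to 23.5 CPM (median 15.6, n = 10). S1 had 11.4 to 15.5 CPM (n = 9) and NAc 8.84 to 16.4 CPM (median 12.3, n = 10), and the difference of this lowest pair was not called (0.09, SE 0.11, adjusted p = 0.480). No VTA or VBT library overlapped the cortical or NAc libraries. VTA was above VBT by 0.75 (SE 0.10, adjusted p = 1.88e-08) in water, and by 0.82 with offsets for the GC content of genes, but by 0.05 (SE 0.12, adjusted p = 0.755) in the fentanyl libraries, where the difference was not called. S1 minus PrL, too, was called in water and not in fentanyl libraries, at -0.36 (SE 0.11, adjusted p = 0.00616) and -0.20 (SE 0.13, adjusted p = 0.212).

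Grin3a, the GluN3 subunit of the juvenile forebrain, was highest in VTA at 75.4 to 112 CPM (median 92.2, n = 9) and in PrL at 59.1 to 88.4 CPM (median 73.2, n = 10). The difference of these regions was not called (0.19, SE 0.09, adjusted p = 0.0533). NAc had 38.9 to 87.2 CPM (median 60.8, n = 10), VBT 38.5 to 48.7 CPM (median 43.4, n = 10) and S1 33.5 to 46.7 CPM (median 36.1, n = 9). PrL and S1, both cortex, did not overlap, and S1 minus PrL was -0.99 (SE 0.09, adjusted p = 9.89e-12). NAc lay above VBT in water, VBT minus NAc being -0.40 (SE 0.09, adjusted p = 9.65e-05), whereas in the fentanyl libraries the sign was the other way at 0.15 (SE 0.14, adjusted p = 0.317). NAc above S1 was also called in water (-0.65, SE 0.09, adjusted p = 5.24e-08) and not in the fentanyl libraries (-0.22, SE 0.14, adjusted p = 0.167).

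Grin3b, known from motor neurons, was barely detected in the forebrain. VTA water libraries had 0.730 to 3.69 CPM (median 1.81, n = 9), VBT 0.819 to 1.54 CPM (median 1.04, n = 10), S1 0.119 to 0.840 CPM (median 0.213, n = 9), NAc 0.0335 to 0.478 CPM (median 0.225, n = 10) and PrL 0 to 0.254 CPM (median 0.0911, n = 10). Behind these values stand 26 to 127 counts per library in VTA and 0 to 11 in PrL, so its differences among S1, PrL and NAc rest on few reads. In PrL the count was 0 in 1 water and 1 fentanyl library, a count that allows up to 0.0842 CPM in the water library (3 counts, counting error only). VTA minus VBT was not called (0.59, SE 0.31, adjusted p = 0.101).

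**Figure D1:**
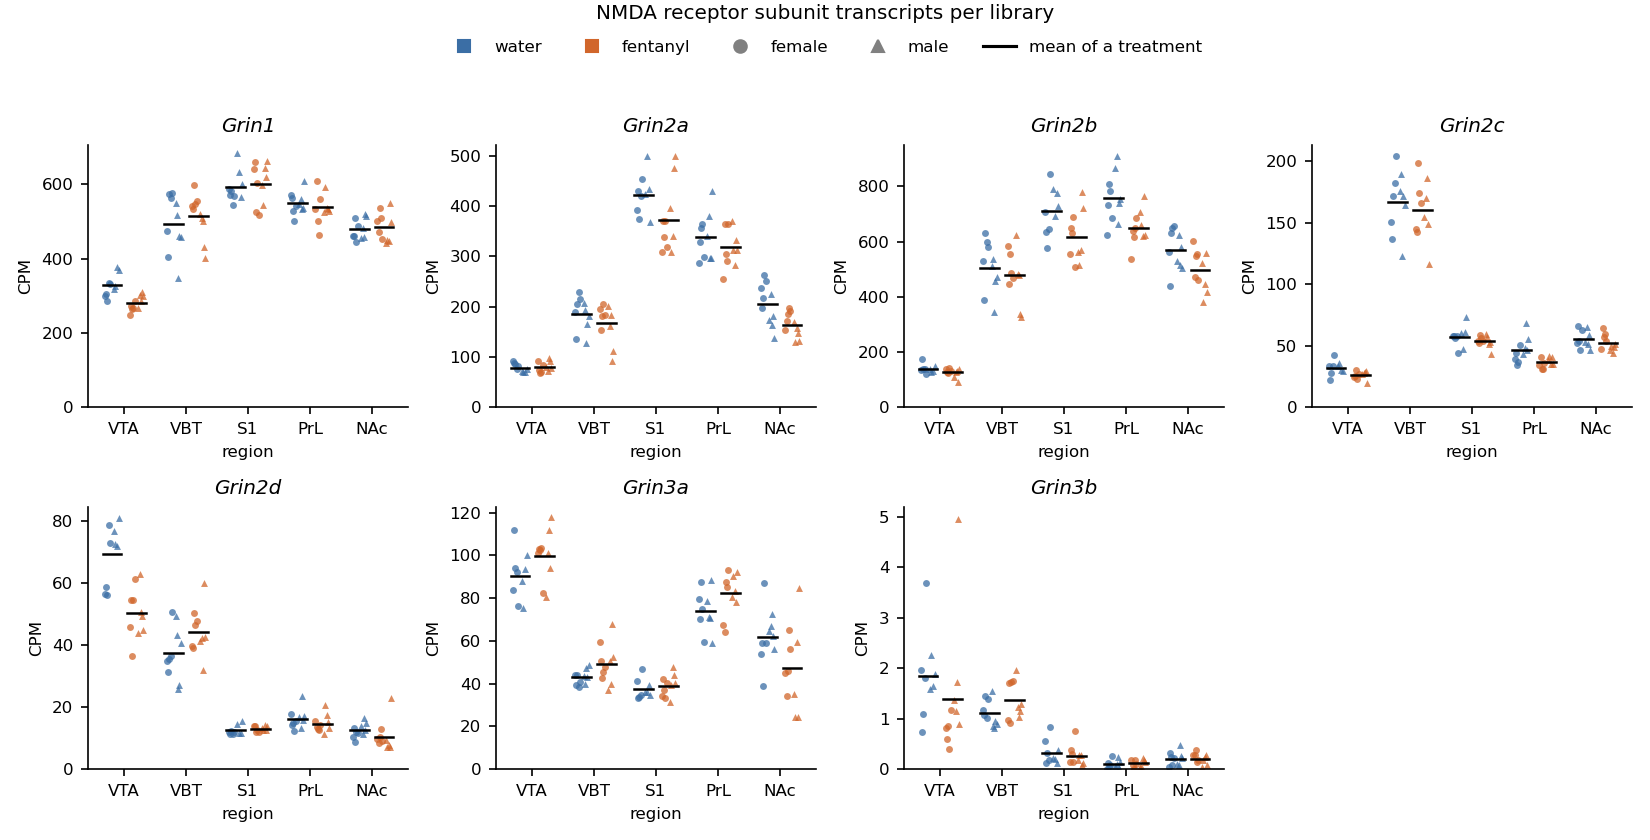
CPM of each subunit gene on linear axes from 0, by brain region, with 1 point per library (blue water, orange fentanyl, circles female, triangles male) and a black bar at the mean of a treatment. VBT stands above the other regions for Grin2c, with water libraries from 123 to 204 CPM, and the water libraries of VTA lie below those of the other regions for Grin2a and Grin2b.

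The ratio of Grin2a to Grin2b counts, in which library size cancels, ordered the regions differently from either gene alone. In water libraries it was 0.599 ± 0.0757 (SD, n = 9) in S1 and 0.571 ± 0.0748 (n = 9) in VTA, then 0.448 ± 0.0492 (n = 10) in PrL, and 0.360 ± 0.0553 (n = 10) in NAc after 0.366 ± 0.0223 (n = 10) in VBT. Both genes were lowest in VTA, yet their ratio there was close to that of S1. S1 ratios ran from 0.505 to 0.720 and VTA ratios up to 0.693, PrL ratios from 0.394 to 0.571, VBT ratios from 0.324 to 0.405 and NAc ratios from 0.273 to 0.452. On the log2 scale, 8 of the 10 pairs of regions differed in two-sided permutation tests, exact where a group had under 10 libraries, adjusted over the 10 pairs. S1 minus NAc was 0.74 (adjusted p = 5.41e-05), VTA minus VBT 0.63 (adjusted p = 5.41e-05) and S1 minus PrL 0.42 (adjusted p = 0.000217). No difference was shown between VTA and S1, at -0.07 (adjusted p = 0.467), or between VBT and NAc, at 0.04 (adjusted p = 0.616). Since the ratio compares 2 genes of unequal exon length by counts, it orders regions and does not give the molar ratio of the transcripts.

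**Figure D2:**
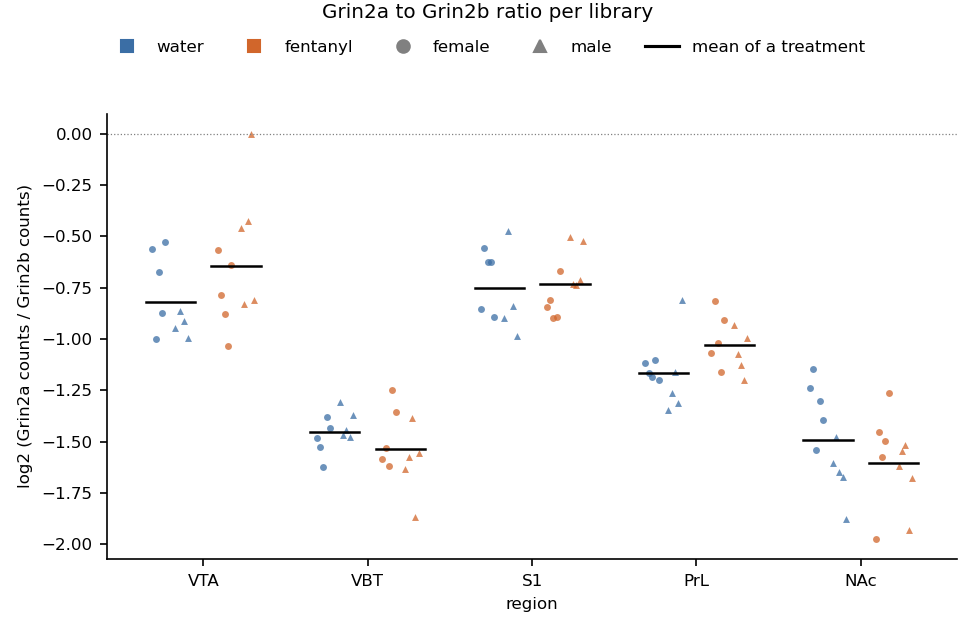
Log2 of the ratio of Grin2a to Grin2b counts by region, with 1 point per library (blue water, orange fentanyl, circles female, triangles male) and a black bar at the mean of a treatment. S1 and VTA libraries lie highest and VBT and NAc libraries lowest, and the male fentanyl libraries of VTA lie above the male water libraries.

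Levels of different genes can be compared only per length, so each GluN2 gene was expressed as reads per kilobase of its joined exons and as a share of the 4 GluN2 genes. By this measure each region had its own mixture. In S1 water libraries Grin2b made up 43.7% ± 2.67 (SD, n = 9), Grin2a 36.0% ± 3.03, Grin2c 17.4% ± 2.71 and Grin2d 2.88% ± 0.331. PrL had 49.9% ± 3.31 Grin2b and 30.8% ± 2.36 Grin2a (n = 10), and NAc 48.5% ± 3.19 and 24.0% ± 2.82 (n = 10). In VBT the leading share was Grin2c at 47.9% ± 2.29, ahead of Grin2b at 29.2% ± 1.98 (n = 10). In VTA it was Grin2d at 38.9% ± 3.69, with Grin2c at 23.6% ± 3.44, Grin2b at 21.0% ± 3.13 and Grin2a at 16.5% ± 2.45 (n = 9).

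These shares depend on the length used, since the joined exons of Grin2b span 24842 bases against 4449 of coding sequence, and those of Grin2c 5037 against 3720. Per kilobase of coding sequence Grin2b led in every region: its share was 66.4% in NAc, 64.5% in PrL, 58.1% in S1, 54.0% in VBT and 41.4% in VTA. Grin2c was then 21.5% of the VBT total and Grin2d 23.3% of the VTA total. Under both lengths VBT had the highest Grin2c share and VTA the highest Grin2d share among the 5 regions. Which of the 4 genes leads within VBT or VTA thus differs between the 2 lengths.

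**Figure D3:**
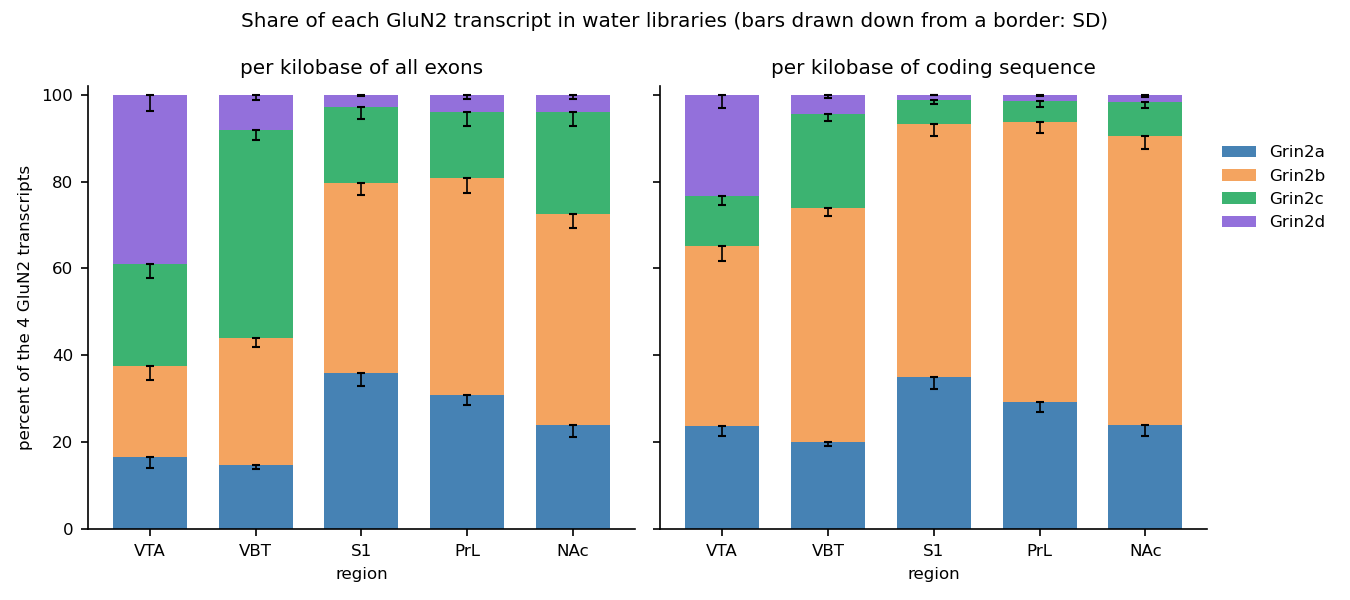
Mean share of Grin2a, Grin2b, Grin2c and Grin2d in the summed GluN2 reads per kilobase of each region's water libraries, as stacked bars that add to 100%, per kilobase of all exons (left) and of coding sequence (right), with an SD drawn down from each border. Grin2c is widest in VBT and Grin2d in VTA in both panels, while the Grin2b share of VBT is 29.2% on the left and 54.0% on the right.

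The same per-length scale places the whole family. In S1 water libraries Grin1 had 61.2 ± 4.34 CPM per kilobase (SD, n = 9), Grin2b 28.6 ± 3.39 and Grin2a 23.5 ± 2.27, and Grin3a was lower at 3.04 ± 0.356. In VTA (n = 9) Grin1 had 33.8 ± 3.16, and Grin2d at 10.4 ± 1.46 and Grin3a at 7.38 ± 0.943 exceeded Grin2b at 5.58 ± 0.625 and Grin2a at 4.38 ± 0.456 per kilobase of all exons. That order does not hold per kilobase of coding sequence, where Grin2b led the GluN2 genes and Grin2a and Grin2d had near-equal shares of 23.8% and 23.3%. Grin1 was the highest member per kilobase of all exons in all 5 regions.

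Genes whose levels followed each subunit most closely were found by Pearson's r of log2(CPM + 1) across the 98 libraries of all regions, over 13611 protein-coding genes with a mean of at least 1 CPM. The 98 points share regions and library depth, so r describes mainly the regional pattern and carries no test. For Grin1 the 3 closest were Map3k10 (r = 0.944), Acap3 (r = 0.943) and Dlgap3 (r = 0.933), of which Dlgap3 encodes a postsynaptic scaffold protein. For Grin2a they were Kalrn (r = 0.969), Mef2c (r = 0.961) and Nav3 (r = 0.960), a guanine exchange factor of spines, a transcription factor and an axon guidance gene. Among those closest to Grin2b were Lrrc7 (r = 0.969) and Neurl1b (r = 0.957), and Lrrc7 encodes densin, a postsynaptic density protein. Grin2c was followed by Kctd17 (r = 0.948), Slc25a37 (r = 0.945) and Cox6a2 (r = 0.938). Grin2d was followed by Flii (r = 0.973), Psd2 (r = 0.956) and Pnoc (r = 0.956), and Pnoc encodes the nociceptin precursor. The GluN3 genes had weaker companions: for Grin3a Atxn10 (r = 0.890), Slc39a6 (r = 0.883) and Gnl3l (r = 0.879), and for Grin3b Lpo (r = 0.893), Lingo4 (r = 0.889) and Grhpr (r = 0.889).

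Fentanyl was then compared with water within each region. VTA was the only region in which the edgeR test called any subunit: Grin1 and Grin2d fell in males, and in the average of both sexes. The relation of levels to the GC content of genes moved with the same groups, as given further on, and with offsets for it neither was called and Grin1 in males was 0.12. In males that relation cannot be told apart from treatment. In males 2 of 7 members were called, against 22% of all genes tested, and 4 had an unadjusted p under 0.05, against 34.7%. In the average 2 of 7 were called, against 23.1%, and 4 had an unadjusted p under 0.05, against 35.4%. The median log2 difference of the 7 members was -0.15 in males and -0.23 in the average, beside 0.0017 over all genes in males.

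Grin1, the obligatory subunit, had 266, 301, 286, 311 and 299 CPM in male fentanyl libraries. The male water libraries had 317, 328, 378 and 370.2 CPM. All 5 fentanyl libraries lay below all 4 water libraries, and the log2 difference was -0.21 (SE 0.07, adjusted p = 0.0266). Female fentanyl libraries had 248, 272, 263, 266 and 285 CPM and female water libraries 301, 304, 287, 335 and 332. The female groups did not overlap either, but the difference of -0.24 (SE 0.06, unadjusted p = 0.000986, adjusted p = 0.251) did not pass. Averaged over sexes Grin1 fell by 0.23 on the log2 scale (SE 0.05, adjusted p = 0.00232).

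Grin2d, the subunit that set VTA apart among the regions, had 44.0, 62.9, 50.8, 49.4 and 44.7 CPM in male fentanyl libraries. The male water libraries had 76.9, 72.5, 72.0 and 80.8 CPM, again with no overlap, and Grin2d changed by -0.55 (SE 0.13, adjusted p = 0.00737). Female fentanyl libraries had 45.9, 54.6, 36.5, 54.6 and 61.1 CPM and female water libraries 56.3, 58.8, 56.2, 78.6 and 72.9. Here the groups overlapped, and the difference was -0.37 (SE 0.13, unadjusted p = 0.00820, adjusted p = 0.289). The average difference was -0.46 (SE 0.09, adjusted p = 0.00232). Grin2d in males stayed called when each VTA library was left out in turn, whereas Grin1 in males was lost without male fentanyl 1 or 3 or male water 4 or 5 (adjusted p = 0.0587 to 0.0991).

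The other members did not pass in VTA. Grin2a in males had 78.9, 72.2, 98.0, 92.1 and 78.3 CPM with fentanyl and 71.4, 70.1, 69.5 and 74.7 with water, a difference of 0.27 (SE 0.10, adjusted p = 0.0622), and in females -0.15 (SE 0.10, adjusted p = 0.524). Grin2c in males had 26.6, 27.5, 28.1, 29.1 and 19.8 CPM with fentanyl and 33.5, 36.1, 30.2 and 29.4 with water. Its groups did not overlap, yet the difference of -0.26 (SE 0.16, adjusted p = 0.260) did not pass, and the average was -0.29 (SE 0.11, adjusted p = 0.0609). In VTA males 3 members had groups that did not overlap, as did 22.4% of all genes, and in females 1, as did 1.61%. Grin2b was at -0.13 (SE 0.06, adjusted p = 0.149) and Grin3a at 0.15 (SE 0.07, adjusted p = 0.119) in the average. Grin3b, at 0.402 to 4.95 CPM, had a female difference of -1.29 (SE 0.48, unadjusted p = 0.0146, adjusted p = 0.313).

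In VTA females edgeR called 0 members and 0% of all genes, although 4 of 7 members had an unadjusted p under 0.05, as did 12.7% of all genes. DESeq2 called 1 member in females, Grin1, and 0.434% of all genes, and limma-voom called 0 members and 0% of all genes. The difference between the sexes was called for 0 members by edgeR (2 of 7 with an unadjusted p under 0.05, beside 11.4% of all genes, of which 0% were called), 0 by DESeq2, with 0.0303% of all genes, and 1 by limma-voom, Grin2a, with 3.04% of all genes. A call in males and none in females is therefore not a shown difference between the sexes for Grin1 or Grin2d.

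VTA libraries also differed in how their levels related to the GC content of genes, and this moved with the groups. For each library, Spearman's rho across genes was computed between the deviation from the VTA mean and the GC content of the gene's longest transcript. It was -0.60 to -0.14 in male fentanyl libraries and 0.63 to 0.73 in the 4 male water libraries, with no overlap. In females it was -0.66 to 0.05 with fentanyl and -0.40 to 0.75 with water, where replicates 4 and 5 were at 0.75 and 0.62. In males the GC trend and treatment thus cannot be told apart, so offsets for the trend can also remove an effect of treatment. The part of the trend in the calls was not tested. With offsets that remove a GC trend from each library, Grin1 was 0.12 (adjusted p = 0.193) in males and 0.01 (adjusted p = 0.921) in the average, the reverse sign, and Grin2d was -0.04 (adjusted p = 0.862) and -0.09 (adjusted p = 0.463). Grin2b, of lower GC content, was -0.22 (adjusted p = 0.0376) in the average and became the 1 member called there. With the replicate block added to these offsets it was not called. The number of all genes called dropped with these offsets from 4355 to 793 in males and from 4580 to 927 in the average, of 19822 tested. Neither Grin1 nor Grin2d was called in males when male water replicate 3 was kept, at -0.06 and -0.23. The 6 VTA libraries with the highest rho were the 4 male water libraries kept and female water replicates 4 and 5, and these had more Grin1 and more Grin2d than any other VTA library kept. The relation to exon length separated the male groups too, with a rho of -0.05 to 0.27 in fentanyl and -0.31 to -0.18 in water libraries, and with offsets for exon length 3 members were called in males, Grin1, Grin2d and Grin2b, the last at -0.28 (adjusted p = 0.0223), against 20.9% of all genes. Dopamine neuron markers overlapped between the groups, at 335 to 1240.0 CPM in male fentanyl and 864 to 1499 in male water libraries. GABA neuron markers summed to 635 to 1567 and 723 to 1469 CPM, astrocyte markers to 859 to 1903 and 963 to 1596, and oligodendrocyte markers to 12881 to 21088 and 16605 to 20295, in the same order. The summed levels of all 14 marker lists overlapped between the male groups, and their part in the result was not tested.

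**Figure D4:**
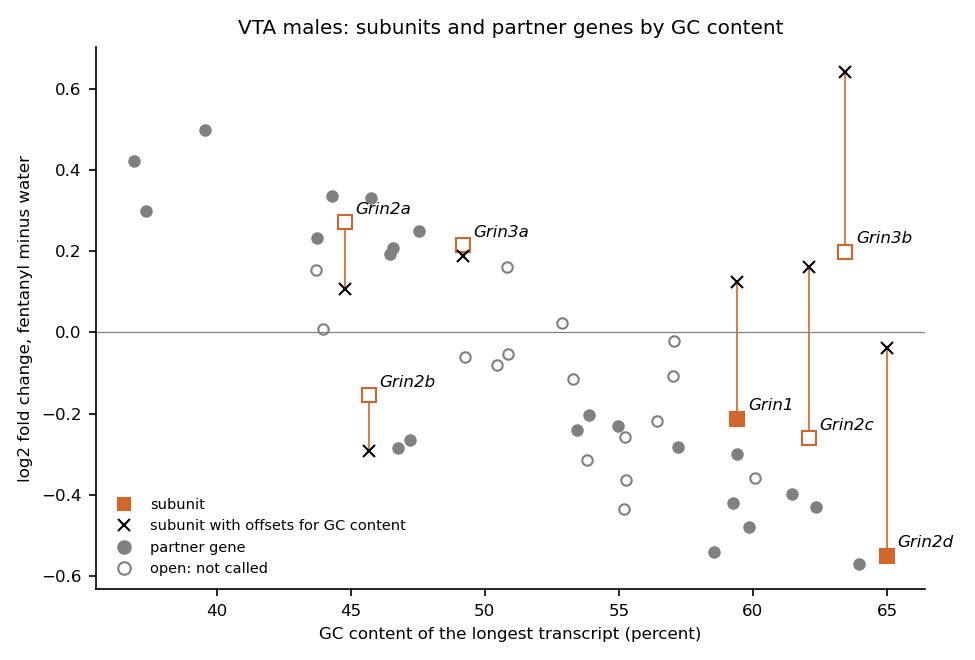
Log2 fold change of fentanyl minus water in VTA males against the GC content of the longest transcript, for the 7 subunits (orange squares) and 38 partner genes described further on (grey circles), filled where called. Crosses give the subunits with offsets for GC content, at 0.12 for Grin1 and -0.04 for Grin2d. The called partners above 0 have a median GC content of 44.3% and those below 0 of 58.5%.

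In VBT no subunit passed the edgeR test in females, in males or in the average, and 0% of all genes were called in each of the 3. Of the members, 0 had an unadjusted p under 0.05 in females or males and 1 in the average, beside 7.86%, 8.7% and 8.49% of all genes. In females, males and the average DESeq2 called 0 members, beside 0.164%, 0.275% and 0.0159% of all genes, and limma-voom 0, beside 0%, 0% and 0%. The member with an unadjusted p under 0.05 was Grin3a, at 0.19 (SE 0.08, unadjusted p = 0.0387, adjusted p = 0.570). Its libraries ran from 38.5 to 48.7 CPM (median 43.4, n = 10) with water and from 36.9 to 68.0 CPM (median 49.1, n = 10) with fentanyl. The thalamic Grin2c had 145, 143, 199, 175 and 166 CPM in female fentanyl and 150.4, 137, 172, 183 and 204 in female water libraries. In males it had 155, 170.1, 187, 149 and 117 CPM with fentanyl and 176, 190.1, 123, 172 and 165 with water. The groups overlapped in both sexes and the average difference was -0.07 (SE 0.10, adjusted p = 0.880). The lowest library of each male group had few thalamic relay markers for VBT: they summed to 1822 CPM in fentanyl replicate 5, with choroid plexus markers at 647, and to 1493 in water replicate 3, with striatal markers at 532. The other male VBT libraries had 2206 to 3840.5, and the part of the markers in the values was not tested. The lowest female water library, replicate 2, had relay markers at 2376 against 3232 to 4591 in the other female VBT libraries, choroid plexus markers at 4492 and striatal markers at 375, and without it the female difference was -0.13. Without the male libraries in turn the male difference was -0.01 and -0.20. No member had groups free of overlap in either sex, against 2.06% of genes in females and 0.967% in males.

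In S1 no subunit passed either, while 0.142% of all genes were called in females, 0% in males and 1.03% in the average. Members with an unadjusted p under 0.05 were 1 of 7 in females, 0 in males and 1 in the average, beside 13.9%, 7.15% and 15.8% of all genes. In the same order DESeq2 called 0 members, beside 2.06%, 0% and 3.27% of all genes, and limma-voom 0, beside 1.06%, 0% and 0.922%. Grin2a in females had 309, 370.0, 339, 371 and 318 CPM with fentanyl and 392, 431, 374, 420.2 and 454 with water. The fentanyl libraries all lay below the water libraries, a separation in one direction or the other that was seen in 4.22% of all genes, and the difference was -0.29 (SE 0.12, unadjusted p = 0.0254, adjusted p = 0.286). In males Grin2a had 397, 309, 342, 476 and 501 CPM with fentanyl and 425, 499, 434 and 369 with water, and these groups overlapped. Grin2b was at -0.20 (SE 0.09, unadjusted p = 0.0324, adjusted p = 0.268) in the average. In S1 females the relation of expression to exon length also moved with treatment: Spearman's rho across genes was -0.48 to 0.03 in fentanyl and 0.06 to 0.37 in water libraries, and Grin2a has long exons. The relation to GC content moved as well, with a rho of -0.16 to 0.41 in fentanyl and -0.50 to 0.01 in water libraries, and Grin2a has the lowest GC content of the 7 genes. With offsets for GC content the female Grin2a difference was -0.22 (adjusted p = 0.437). With offsets for exon length it was -0.14 (adjusted p = 0.592). The length trend separated the female groups, so it cannot be told apart from treatment there. The part of either trend in the Grin2a difference was not tested. In males no member's groups were free of overlap, against 1.72% of genes.

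In PrL, where Grin3b was too low to be tested, 0 of 6 subunits passed the edgeR test in either sex or in the average, and 0.021%, 0% and 0.697% of all genes were called in females, males and the average. An unadjusted p under 0.05 was found for 0 of 6 in females, 1 in males and 3 in the average, beside 9.53%, 12% and 19.1% of all genes. In the average DESeq2 called 1 (Grin2c), beside 4.08% of all genes, and limma-voom 2 (Grin2b and Grin2c), beside 1.62%. Grin2c in males had 38.0, 41.8, 35.4, 40.7 and 35.3 CPM with fentanyl and 43.2, 48.1, 68.3, 46.3 and 55.1 with water. The male groups did not overlap, as in 2% of all genes, and the difference was -0.42 (SE 0.11, unadjusted p = 0.000926, adjusted p = 0.315). In females it had 34.6, 40.7, 31.1, 31.3 and 35.7 CPM with fentanyl and 39.3, 44.3, 34.2, 36.8 and 50.6 with water, which overlapped. The average was -0.32 (SE 0.08, unadjusted p = 0.000575, adjusted p = 0.0587). The highest water library in each sex was one of the 2 with the most olfactory bulb markers. Without those 2 libraries, and with male water replicate 4 kept, the average Grin2c difference was -0.23 and the male one -0.33.

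Grin2b in PrL was at -0.20 (SE 0.07, unadjusted p = 0.0111, adjusted p = 0.146) in the average, and at -0.24 without those 2 libraries. Its male libraries had 707, 659, 619, 765 and 622 CPM with fentanyl and 866, 910.3, 664, 738 and 755 with water, an overlap of the groups. Grin3a was the member with a positive difference, 0.18 (SE 0.08, unadjusted p = 0.0425, adjusted p = 0.245). The percent of reads outside exons also moved with treatment in PrL, at 9.48 to 11.2% against 11.5 to 13.3% in females and at most 12.2% with fentanyl and 13.7% with water in males. The female groups did not overlap and the male groups did. With that percentage as a covariate the average Grin2c difference was -0.37 (adjusted p = 0.621). In PrL females no member's groups were free of overlap, against 2.18% of genes.

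In NAc Grin3b was again too low to be tested and 0 of 6 subunits passed the edgeR test, with 0%, 0.662% and 0% of all genes called in females, males and the average. With an unadjusted p under 0.05 there were 1 of 6 in females, 0 in males and 2 in the average, beside 9.03%, 17.6% and 12% of all genes. DESeq2 called 0 members, beside 4.72% of all genes in males, and limma-voom 1, Grin2d in males, beside 7.76%. Grin2a in females had 154, 172, 185, 197 and 192 CPM with fentanyl and 237, 198, 217, 264 and 250.1 with water. All 5 fentanyl libraries lay below all 5 water libraries, and groups free of overlap, in one direction or the other, were found for 0.755% of all genes. The difference was -0.38 (SE 0.12, unadjusted p = 0.00425, adjusted p = 0.544). In males Grin2a had 170.2, 130.4, 157, 147 and 131 CPM with fentanyl and 174, 225, 164, 182 and 138 with water, which overlapped, and the average was -0.31 (SE 0.08, unadjusted p = 0.00160, adjusted p = 0.235). Cortical markers, of which all 5 were detected, summed to 53.7 to 821 CPM in female fentanyl and 247 to 1373 in female water libraries. With their log2 sum as a covariate, Grin2a was -0.27 in females and -0.22 in the average.

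Grin3a and Grin2d were uneven among the male fentanyl libraries of NAc. Grin3a had 35.2, 24.6, 59.5, 24.5 and 84.9 CPM with fentanyl and 64.6, 66.9, 72.7, 62.4 and 56.2 with water. Fentanyl replicates 2 and 4 were lowest and replicate 5 was the highest of all 10, and the difference was -0.48 (SE 0.30, unadjusted p = 0.121, adjusted p = 0.424). It was -0.79 without replicate 5 and -0.33 without replicate 2, and was called in neither. In replicates 2 and 4 cortical markers summed to 86.9 and 114 CPM, against 359.5 to 700.2 in male water libraries, and with the marker covariate Grin3a was -0.42. Grin2d had 9.40, 7.10, 7.63, 7.27 and 22.8 CPM with fentanyl and 13.8, 11.4, 16.4, 12.7 and 14.9 with water, with 4 fentanyl libraries below and replicate 5 above every water library. The difference was -0.35 (SE 0.24, unadjusted p = 0.166, adjusted p = 0.480), and without replicate 5 it was -0.76 (adjusted p = 0.00856). In males no member's groups were free of overlap, against 3.5% of genes.

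Across the 10 fits of region and sex, most of the differences of Grin2b, Grin2c and Grin2a were negative, though some were near 0. Of all genes, 48.6% (S1 females) to 53.7% (VBT females) were lower with fentanyl within a fit. The share of all genes lower in all 10 is not given here. Grin2b was lower with fentanyl in 10 of 10, at log2 differences of -0.22 to -0.05, and 0 of these had an unadjusted p under 0.05. In VBT males it reached 0.05 with a library left out. Grin2c was lower in 10 of 10, at -0.42 to -0.00085, and in VBT, S1 and NAc females single libraries left out turned it positive, up to 0.04, 0.02 and 0.06. Grin2a was lower in 9 of 10, and with a library left out reached 0.03 in S1 males and 0.05 in PrL females. An unadjusted p under 0.05 was found in 2 Grin2c fits and 3 Grin2a fits, of which 1, VTA males, was the positive one. Grin1 was lower in 3, Grin2d in 6 and Grin3a in 3 of 10, and Grin3b in 3 of the 6 fits that could test it. Only Grin1 and Grin2d were called, each in 1 of the 10 fits, VTA males. Libraries of different regions may share animals, so the fits are not shown to be independent.

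**Figure D5:**
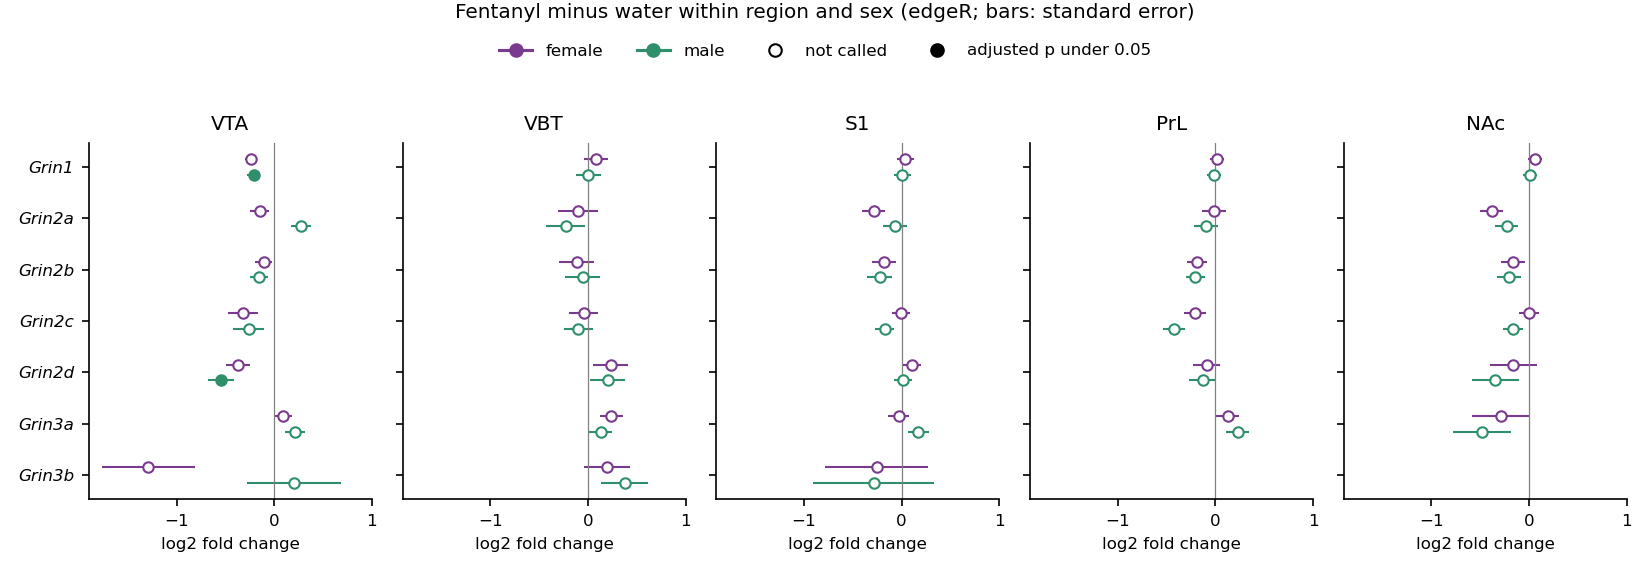
Log2 difference of fentanyl minus water for each subunit in each region and sex, with bars of 1 standard error and called values marked. The differences of Grin2b lie between -0.22 and -0.05, and the called values are Grin1 and Grin2d in VTA males.

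The ratio of Grin2a to Grin2b was also compared between treatments, and 0 of 15 permutation tests passed after adjustment over the 15 (4 had an unadjusted p under 0.05). In VTA males the ratio was 0.727, 0.562, 0.744, 0.999 and 0.569 in fentanyl libraries. In male water libraries it was 0.519, 0.549, 0.531 and 0.501. Every fentanyl ratio exceeded every water ratio, by a mean log2 difference of 0.42 (unadjusted p = 0.0159, adjusted p = 0.155), where 0.0159 is the smallest p that the exact test of 5 against 4 can give. With a GC trend removed per library it was 0.40. In VTA females the difference was -0.05 (unadjusted p = 0.651, adjusted p = 0.813) by the exact test. In VBT males it was -0.19 (unadjusted p = 0.0397, adjusted p = 0.155) and in PrL females 0.16 (unadjusted p = 0.0317, adjusted p = 0.155), both by the exact test. In PrL averaged over sexes it was 0.14 (unadjusted p = 0.0412, adjusted p = 0.155) by the exact test with labels exchanged within each sex. The NAc ratio was 0.332 ± 0.0477 (SD, n = 10) with fentanyl and 0.360 ± 0.0553 (n = 10) with water, and the S1 ratio 0.604 ± 0.0592 (n = 10) and 0.599 ± 0.0757 (n = 9). Neither difference passed in females, males or the average.

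NMDA receptors are held in the postsynaptic density by scaffold proteins and tuned by kinases, transport proteins and the supply of the co-agonists glycine and D-serine. A list of 38 such partner genes was read from the same fits. In VTA males 9 rose and 13 fell, 22 of 38 against 22% of all genes, of which 11% rose and 11% fell. In the average 7 rose and 13 fell, against 11.1% and 12%. The median log2 difference over the 38 was -0.16 in males, beside 0.0017 over all genes. Among the 14 scaffolds, Homer1 (0.42), Dlg2 (0.34) and Dlg1 (0.23) rose in males, as log2 differences. In the same scale Dlgap3 (-0.57), Shank3 (-0.43), Shank1 (-0.40), Dlgap4 (-0.30), Dlg4 (-0.28) and Shank2 (-0.23) were among those that fell, and Dlg4 encodes PSD-95.

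Of the 10 kinases, phosphatase and signalling genes, Neto1 (0.50) and Rasgrf2 (0.33) rose in VTA males, and Src (-0.42), Cdk5 (-0.24) and Camk2b (-0.20) fell. Src phosphorylates GluN2 subunits and Neto1 encodes an auxiliary protein of glutamate receptors. Of the 7 trafficking genes, Lin7c (0.30), Snx27 (0.25) and Cask (0.19) rose and Lin7b (-0.48) fell. Of the 6 genes of co-agonist synthesis and transport, Srr, the D-serine synthase, rose (0.21) and Phgdh, of serine synthesis, fell (-0.28). Rest, a repressor of neuronal genes, fell (-0.27). In the average Ptpn5 (-0.22) and Apba1 (-0.19) fell as well. The partners that rose in males had a median GC content of 44.3% and those that fell 58.5%. With GC offsets 0 rose and 2 fell in males, beside 4% of all genes called, and the median log2 difference went from 0.30 to 0.10 over the 9 that had risen and from -0.30 to -0.09 over the 13 that had fallen. With male water replicate 3 kept 0 were called in males, at medians of 0.51 and -0.33 over the same genes. In the average 0 rose and 2 fell with GC offsets, and 0 were called with that replicate kept.

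In VTA females 0 of the 38 partners were called by edgeR, and 8 had an unadjusted p under 0.05, beside 0% and 12.7% of all genes. In NAc males 2 of 37 partners tested were called and 8 had an unadjusted p under 0.05, beside 0.662% and 17.6% of all genes. Of these, Lin7a, of the complex that carries NMDA receptors along dendrites, fell by 0.58 as a log2 difference (SE 0.10, edgeR adjusted p = 0.0242). Nos1, the nitric oxide synthase tethered to PSD-95, was at -0.43 (SE 0.10, adjusted p = 0.0475) and also passed. Of the 20 fits with 1 library left out, Lin7a was called in 14 and Nos1 in 8. Between these male groups of NAc the rho of expression with exon length was -0.47 to -0.02 with fentanyl and -0.23 to 0.40 with water, and reads outside exons made up 12.1 to 14.3% and 13.7 to 15.4%. Cortical markers were also low in fentanyl replicates 2 and 4, and the part of these measures in the calls was not tested. No partner was called in VBT, S1 or PrL in females, males or the average, or in NAc females or the average.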

How the data were processed

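Bulk RNA of tissue punches was measured in 99 libraries, each built on 10 ng of input by SMART-Seq v4, per the labels' protocols. The deposited values are the authors' unnormalized counts for each Ensembl gene, made with HTSeq (version not given) on GRCm38, per the submitters' processing notes. The aligner and annotation release are not given in the sources used here. The 5 lines of unassigned reads, 16.2% to 24.0% of each file's total, were kept out of library sizes and tests. Symbols, positions, lengths and GC content came from GENCODE M21, which holds 55154 of the 55335 identifiers.

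Groups follow the labels. Each region was fitted with edgeR 4.0.16 in R 4.3.3 (TMM, filterByExpr, robust quasi-likelihood F-test) over its 4 groups. Fentanyl minus water was taken for each sex and for the average of both, and the 2 sexes were contrasted. Regions were compared in one fit of the water libraries with sex as covariate. Adjusted p-values are Benjamini-Hochberg values over every gene tested, calls are at an adjusted p under 0.05, and each SE is the log2 fold change divided by the root of its F statistic. The Grin2a to Grin2b ratio was tested by two-sided permutation. Between regions it was exact with under 10 libraries in a group and otherwise used 100000 resamples. Between treatments it was exact, and for the average of both sexes labels were exchanged within each sex. VTA male water replicate 3, with under 10000 genes detected, was left out. The intervals that counting allows cover counting error only, since reads were not marked as molecules.

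Alternatives were DESeq2 1.42.0, limma-voom (limma 3.58.1), other filters, size factors, a replicate block, offsets for exon length or GC content, covariates, each library left out, and that library kept. A fit without the 2 olfactory bulb libraries and a marker covariate in NAc were chosen after seeing the data. The fits were tested on simulated data of each region, in the female contrast and the average. In the female contrast 49 to 55 of 100 genes changed 1.5-fold were called, and 59 to 80 of 100 changed 2-fold. In the average 63 to 76 and 78 to 91 were called, in the same order. Tables and figures used Python 3.11.15, numpy 2.4.6, scipy 1.17.1, pandas 2.3.3 and matplotlib 3.10.9.

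The members, partner lists, marker lists and tests were chosen with earlier results of these data known. Named genes are the 7 members, every partner called in a contrast, and for each member the 3 protein-coding genes with a mean of at least 1 CPM and the highest Pearson r. The 14 lists of cell type and region markers were read as summed CPM. Some genes that the rule names and some sequences are not reported here.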

Additional observations from a re-analysis of the deposited data

Results flagged for a closer look

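Within groups of 4 or 5 libraries, 9 values lay farther from the nearest other library, relative to the range of the group, than Dixon's criterion at the 95% level allows. Of the 160 groups of values examined, chance gives about 8, so the number is near that of chance.

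In VTA, Grin3a in female fentanyl replicate 5 had 82.3 CPM, against 101 to 103 in the rest of its group. Grin2c in male fentanyl replicate 5 of VTA had 19.8 CPM, against 26.6 to 29.1 in the rest of its group, and Grin3b in male fentanyl replicate 4 had 4.95 CPM, against 0.903 to 1.73 in the rest of its group. In VBT, Grin2d in female water replicate 5 had 50.6 CPM, against 31.2 to 36.4 in the rest of its group. Grin3b in male fentanyl replicate 1 of VBT had 1.97 CPM, against 1.02 to 1.29 in the rest of its group, and in male water replicate 1 it had 1.54 CPM, against 0.819 to 0.954 in the rest of its group. In S1, Grin2c in female water replicate 5 had 44.4 CPM, against 55.8 to 57.9 in the rest of its group. In PrL, Grin1 in male fentanyl replicate 2 had 592 CPM, against 525 to 536 in the rest of its group.

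In NAc, Grin2d in male fentanyl replicate 5 had 22.8 CPM, against 7.10 to 9.40 in the rest of its group. This library also had a rho of 0.48 between expression and the GC content of genes, against -0.29 to -0.04 in the rest of its group and -0.20 to 0.49 in male water libraries of NAc, and its part in the value was not tested.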

How the results depend on the processing

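The number of subunits called stayed at 0 in VBT and S1 (females, males and average), in PrL females and males and in NAc females under every alternative run. Elsewhere it moved as follows. In VTA females it was 1 with DESeq2. In VTA males (2 called) it was 4 with limma-voom, 4 with a covariate for the share of reads outside exons, 0 with GC offsets, 0 with GC offsets and the replicate block, 0 with male water replicate 3 kept, and 1 to 3 when each library was left out. Grin2a was gained in males without female fentanyl 1, male fentanyl 2 or male fentanyl 5. In the VTA average (2) it was 4 with the covariate, 1 with GC offsets, 0 with GC offsets and the replicate block, 0 with male water replicate 3 kept, and 2 to 4 with a library left out, where 4 came without female water 2 (Grin2c and Grin3a gained) or male fentanyl 4 (Grin2c and Grin3b gained). The VTA sex difference gave 1 with limma-voom. The PrL average gave 1 with DESeq2, 2 with limma-voom and 0 to 1 with a library left out, Grin2c being called without female water 3. NAc males gave 1 with limma-voom, and NAc males and the NAc average gave 0 to 1 with a library left out, Grin2d being called without male fentanyl 5. Over all genes in VTA males, 4355 were called, 793 with GC offsets and 42 with male water replicate 3 kept, and in the average 4580, 927 and 60. Under limma-voom 6520 genes were called in males, and with the covariate 5359 in males and 5705 in the average. With a library left out the counts were 2659 to 4664 in VTA males, 3637 to 5208 in the VTA average, 0 to 220 in S1 females, 38 to 289 in the PrL average and 0 to 813 in NAc males, where 813 came without male fentanyl 5 and 0 without male water 3. Counts over all genes also moved with the tool: edgeR, DESeq2 and limma-voom called 28, 406 and 209 in S1 females, 133, 778 and 309 in the PrL average and 129, 920 and 1512 in NAc males. Under the replicate block alone the members called were 2 in VTA males, 2 in the VTA average and 58 of 70 between regions, and it changed no call of a member. Grin1 in VTA took a positive sign with GC offsets (0.12 in males, 0.0099 in the average) and with the replicate block added (0.13 and 0.0136). Whether replicate numbers pair fentanyl with water libraries is not settled by the correlations. Same-numbered pairs correlated at -0.52 to 0.56 (median 0.06), with 21 of 48 above 0.1. Differently numbered pairs had a median of -0.02, with 62 of 192 above 0.1. Between regions 77 of 192 same-numbered and 146 of 769 differently numbered pairs of one sex and treatment were above 0.1, and the fits between regions treat libraries as independent. The ratio in VTA males was 0.40 under the replicate block.

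Between regions, VTA male water replicate 3 kept lowered the members called from 58 to 46 of 70, among them to 3 between VBT and NAc, 2 between S1 and PrL and 3 between PrL and NAc, and fentanyl libraries gave 3 between S1 and PrL. In the fentanyl libraries Grin3a for VBT minus NAc was 0.15, the other sign. The log2 ratio of VTA minus PrL lost its call with that library kept (0.23) and in males only (0.25), as did S1 minus PrL in males only (0.38), while VBT minus NAc gained one in males only (0.24). The fentanyl difference of the ratio in the PrL average ranged from 0.11 to 0.18 over libraries left out and passed without male water 5 (adjusted p = 0.0165).

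The GluN2 shares moved most with the length used. Per kilobase of coding sequence, in percent of Grin2a, Grin2b, Grin2c and Grin2d, they were 23.8, 41.4, 11.5 and 23.3 in VTA and 20.0, 54.0, 21.5 and 4.50 in VBT. Those of Grin2b, Grin2c and Grin2d were 58.1, 5.66 and 1.15 in S1, 64.5, 4.81 and 1.56 in PrL and 66.4, 7.84 and 1.68 in NAc. By the longest coding transcript Grin2a was 27.1 in NAc, 34.4 in PrL, 39.9 in S1 and 16.9 in VBT, and Grin2b was 40.7 in S1. Grin2d in VTA was 35.0 with male water replicate 3 kept. These shifts follow from the lengths divided by. Beyond the lengths and that library, the cause of the shifts was not tested.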

Other observations

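The mixture of GluN2 transcripts was also read in the fentanyl libraries, per kilobase of all exons and without a test. In VTA the Grin2d share was 33.9% ± 3.66 (SD, n = 10) with fentanyl and 38.9% ± 3.69 (n = 9) with water, and the Grin2a share was 20.2% ± 2.46 and 16.5% ± 2.45. Grin2d has a GC content of 65.0% and Grin2a of 44.8%, and the GC trend of VTA libraries moved with treatment. With offsets for it the average log2 difference of Grin2d in VTA was -0.09 in place of -0.46. The part of the GC trend in these shares was not tested. In VBT the Grin2c share was 47.6% ± 3.53 (n = 10) with fentanyl and 47.9% ± 2.29 (n = 10) with water, and in S1 the Grin2b share was 42.5% ± 2.15 (n = 10) and 43.7% ± 2.67 (n = 9).

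The VTA library left out, male water replicate 3, carried Grin1 at 235 CPM, Grin2a at 85.0, Grin2b at 339 and Grin2c at 41.4. Its Grin2b was above that of every VTA library kept. Grin2d, Grin3a and Grin3b had 0 counts in it, which allows up to 0.182 CPM each (3 counts, counting error only).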
